A study of Mus musculus with 6 samples.

Results

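Notch signalling was described here through 30 of its genes, read by exact gene symbol from the 22958 RefSeq entries of each library's table. All 30 were found, each as 1 entry. They comprised 4 receptors, 5 ligands, 3 fringe glycosyltransferases, 4 gamma-secretase subunits, the DNA-binding factor Rbpj with 3 Mastermind coactivators, 5 target genes and 5 regulators of the Numb, Deltex and Itch families. Of these, 29 had enough reads to be tested, and Numbl, with 2 to 7 reads per library, had not.

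RNA had been sequenced from CD31-sorted (PECAM1-sorted) endothelial cells of the brain of mouse embryos at stage E11.5, of C57BL/6 x 129/Sv background, whose mothers had received tamoxifen at E9.5. All 6 libraries carried the tamoxifen-inducible Cre, which the labels spell Cdhrs5CreERT2. The 3 control libraries were labelled Cdhrs5CreERT2:R26Axin1IL-/-, with wildtype Axin1 expression, and the 3 libraries overexpressing Axin1 (Axin1 libraries) Cdhrs5CreERT2:R26Axin1IL+/-. Controls thus shared the Cre and the tamoxifen and lacked the Axin1 allele. The sources used here do not give the share of cells that had recombined, the number of embryos behind a library or their litters. AXIN1 is a scaffold protein of the beta-catenin destruction complex, so its overexpression is a way to lower Wnt/beta-catenin signalling.

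Notch receptors are cut when they bind a ligand on a neighbouring cell, and gamma-secretase, a membrane protease, then frees the intracellular part. That part joins RBPJ and a Mastermind coactivator in the nucleus and switches on Hes and Hey genes, which encode transcriptional repressors. In growing vessels Dll4 to Notch1 signalling restrains tip cell formation and promotes arterial identity, Jag1 can compete with Dll4, and fringe enzymes add sugars to Notch that change which ligand it answers to.

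Promoter sequence was available for 24 of the 30 genes in the RefSeq table (build GRCm38.p6, while the counts were made on mm9). Those without it were Mfng, Dtx3, Itch and the targets Hes1, Hey1 and Heyl. The 250 bases before the RefSeq start are shown, 5′ to 3′ on the gene's strand, for Jag1, the member that changed, for Dll4, the other main ligand, for the target gene Hey2 and for Lfng, whose window, like 1 window of Rbpj, held 2 matches to the RBPJ core. Capitals mark that core, TGGGAA on either strand.
Jag1 chr2:137116521-137116770 (minus strand): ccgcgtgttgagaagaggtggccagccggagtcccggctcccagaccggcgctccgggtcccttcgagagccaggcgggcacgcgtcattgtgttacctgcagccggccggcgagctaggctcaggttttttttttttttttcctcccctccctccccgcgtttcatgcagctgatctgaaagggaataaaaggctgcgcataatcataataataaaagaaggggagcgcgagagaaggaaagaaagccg
Dll4 chr2:119325534-119325783 (plus strand): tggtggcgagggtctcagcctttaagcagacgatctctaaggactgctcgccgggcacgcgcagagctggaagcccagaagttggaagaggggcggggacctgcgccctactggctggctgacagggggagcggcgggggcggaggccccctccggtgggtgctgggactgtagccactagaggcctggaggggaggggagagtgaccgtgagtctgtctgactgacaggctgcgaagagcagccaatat
Hey2 chr10:30842784-30843033 (minus strand): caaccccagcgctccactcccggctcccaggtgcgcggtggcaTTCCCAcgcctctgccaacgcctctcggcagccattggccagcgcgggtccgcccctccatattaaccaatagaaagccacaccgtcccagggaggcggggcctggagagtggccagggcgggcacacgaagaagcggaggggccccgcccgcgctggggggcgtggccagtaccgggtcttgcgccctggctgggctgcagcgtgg
Lfng chr5:140607091-140607340 (plus strand): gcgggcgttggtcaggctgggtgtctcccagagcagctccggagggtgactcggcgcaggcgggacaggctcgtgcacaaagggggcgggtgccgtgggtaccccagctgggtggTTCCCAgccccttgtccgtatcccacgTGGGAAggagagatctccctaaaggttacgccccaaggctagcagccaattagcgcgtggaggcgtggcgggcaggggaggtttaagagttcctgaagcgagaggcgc
Neither ligand's window held the RBPJ core or CTTTGA, searched here as the core of TCF/LEF factors, the partners of beta-catenin. Other forms of that core were not searched. The 24 genes had 31 windows, since some have several starts. The RBPJ core stood in 9 of the 31, from 8 genes, and in 21.6% of all 32851 windows of this length, counting either strand. Among the targets with a window, that of Hey2 held the RBPJ core and that of Nrarp did not. The TCF/LEF core stood in 3 of the 31, those of Ncstn, Maml1 and Dtx2, and in 13.8% of all windows. The HES-type N-box CACNAG was in 11 of the 31 (36.7% of all windows) and the E-box CACGTG in 3 (6.02%). The E-box of Lfng overlapped the RBPJ core that lies 108 bases before the start. A match or its absence describes these letters only.

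Library totals lay between 10772492 and 14234409 reads. Axin1 itself was at 17.6 to 25.0 CPM (reads scaled to library size, with TMM factors) in the controls and at 62.2 to 79.8 CPM in the Axin1 libraries, and edgeR's adjusted p was 0.0103. The endothelial genes Pecam1 (1182 to 1455 CPM) and Cdh5 (432 to 981 CPM) were high in every library. For some genes control 3 stood apart from controls 1 and 2. Cdh5 read 432, 502 and 846 CPM in controls 1, 2 and 3 against 924 to 981 CPM in the Axin1 libraries. Eng, a TGF-beta co-receptor of endothelium, read 183, 132 and 324 against 311 to 324 CPM. Both genes were chosen after their values were seen. Of 10 general endothelial genes 4 were highest among the controls in control 3, and 4 others, Pecam1, Tek, Flt1 and Emcn, were lowest there. By edgeR 0 of the 10 passed with all 6 libraries and 2 without control 3. At an unadjusted edgeR p under 0.05 there were 2, and DESeq2 called 1. Esam, with the smallest p of the 10, read 1206 to 1321 CPM in the controls. It was lower in the Axin1 libraries, at 925 to 1083 CPM (log2 -0.31, edgeR adjusted p 0.176). Of the 29 tested members 12 were highest among the controls in control 3, against 36.8% of all genes tested. Without control 3, edgeR called 695 genes in place of 107, and values without it are given below for the named genes whose call it decides. No gene passed edgeR's test without control 2 or without Axin1 library 2, where 1539 and 1733 genes had an unadjusted p under 0.05.

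Markers of other cells were present and uneven, and those of blood cells reached endothelial levels (the embryonic globin gene Hbb-y read 134 to 1887 CPM). The summed level of 10 mural (pericyte) markers was 49.5 to 82.4 CPM in the controls and 69.5 to 101 CPM in the Axin1 libraries, that of 10 mesenchyme markers 41.5 to 128 and 55.5 to 145 CPM, and that of 11 neural markers 179 to 392 and 254 to 276 CPM. Macrophage markers (10 genes) ranged from 429 to 814 CPM in the controls while Axin1 libraries 1 and 3 held the extremes, 235 and 2546 CPM. Of 8 erythroid and 6 platelet genes the sums were 736 to 3065 and 1126 to 1253 CPM in the controls and 261 to 2697 and 463 to 2107 CPM in the Axin1 libraries. None of the 48 tested markers in these 6 lists passed edgeR's test, 0 had an unadjusted p under 0.05 and DESeq2 called 0. Log2 fold changes were positive for 10 of 10 macrophage (median 1.28), 7 of 8 mesenchyme, 5 of 6 platelet and 6 of 9 mural markers tested. They were positive for 3 of 8 neural and 3 of 7 erythroid markers. Intervals were wide, such as -1.03 to 3.61 for the macrophage gene Csf1r, so a missing call does not show equal amounts of these cells. Among defining markers the neural factor gene Sox2 had no read in control 1, and the mural gene Cspg4 lay at 0.09 to 3.20 CPM.

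Across the pathway, 1 gene passed edgeR's test. Jag1, a Notch ligand of the Serrate/Jagged type, was 1.67-fold lower in the Axin1 libraries, and 0 members passed as higher. For the 28 tested members that did not pass, this does not show that they were unchanged. Of 12661 genes tested, 0.845% were called by edgeR (quasi-likelihood F test, p-values adjusted after Benjamini and Hochberg), 0.49% lower and 0.355% higher. At an unadjusted p under 0.05 there were 7 members, 3 higher and 4 lower, while 17.2% of all genes reached that. DESeq2 called Jag1, Hey1 and Aph1a, against 6.17% of all genes with an adjusted p. The median log2 fold change was 0.05 over the 29 members and 0.02 over all genes, and the median size of a change regardless of sign was 0.29 and 0.24.

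The groups did not overlap for 8 of the 29 members (27.6%), 3 higher and 5 lower, against 23.8% of all genes tested, a similar share (11.3% higher and 12.4% lower). These were Jag1, Notch4, Mfng, Ncstn and Aph1a on the lower side and Hey1, Dll1 and Maml2 on the higher side.

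**Figure D1:**
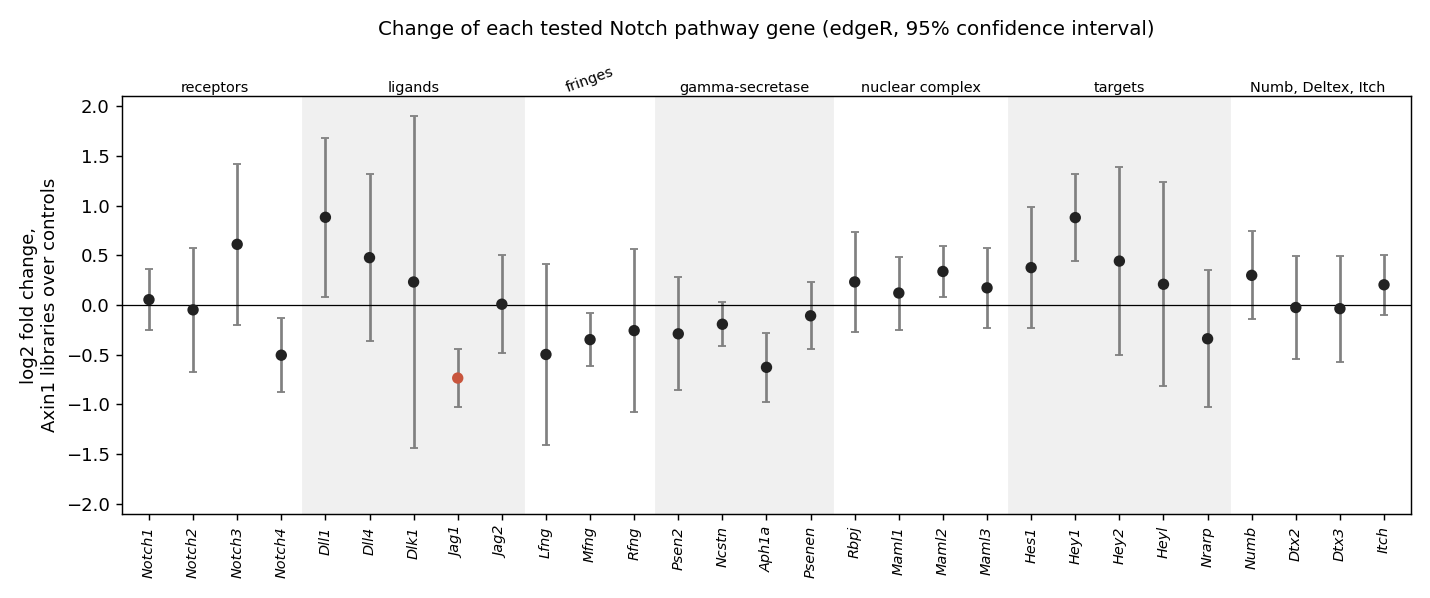
Log2 fold change of the 29 tested genes (y axis, Axin1 libraries over controls, n = 3 each), ordered by role. Points are edgeR estimates, bars their 95% intervals, and the red point marks Jag1 (-0.74), the gene with an adjusted p below 0.05.

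Among the ligands, Jag1 (NM_013822) read 230, 237 and 216 CPM in controls 1, 2 and 3 and 126, 124 and 161 CPM in Axin1 libraries 1, 2 and 3. Every Axin1 library lay below every control, with group means of 228 ± 10.9 and 137 ± 20.6 CPM (SD, n = 3 each). The log2 fold change was -0.74 (SE 0.13, 95% confidence interval -1.03 to -0.45) and edgeR's adjusted p 0.0452. The fold change stayed between -0.87 and -0.67 on the log2 scale with any 1 library left out, and the adjusted p was 0.0172 without control 3 but 0.0546 to 0.208 without any of the other 5 libraries. DESeq2 gave an adjusted p of 2.0e-04, and limma on log2(RPKM + 1) 0.0583.

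Jag1 kept its direction in all 16 alternative fits and its call in 7. It was called with RLE factors (0.814% of all genes called), upper quartile scaling (0.9%), no filter on low counts (1.11%), a filter of 1 CPM in 3 libraries (0.921%), DESeq2, a block on the number in the sample titles (4 libraries, 11.9%) and without control 3 (5.37%). It was not called without robust estimation (0.403%), by limma with a pseudocount of 1 (0.837%) or 0.1 (0.798%), or with a block on the replicate number (0.829%). Nor was it called without control 1 (0.0768%), control 2 (0%) or Axin1 libraries 1 (0.256%), 2 (0%) or 3 (0.14%).

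Dll4, the ligand of endothelial tip cells and arteries, read 103, 98.5 and 229 CPM in the controls and 234, 192 and 172 CPM in the Axin1 libraries. The groups overlapped through control 3, which stood with the Axin1 libraries. With all 6 libraries the log2 fold change was 0.48 (95% interval -0.37 to 1.32, edgeR adjusted p 0.545). Without control 3 it came to 0.97, at an edgeR adjusted p of 0.0107, and leaving out any other library gave 0.27 to 0.57. The same library was the high control for Cdh5 and Eng, whose log2 fold changes without it were 1.01 and 1.00 at edgeR adjusted p values of 0.00222 and 0.00996. The part of that library in these results was not tested beyond leaving it out, and a fit chosen for the library it omits is no separate support for a rise of Dll4.

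The remaining ligands were at low levels. Dll1, a Delta ligand prominent in neural progenitors, was counted at 2.36, 3.30 and 5.42 CPM in the controls and at 7.51, 6.61 and 6.31 CPM in the Axin1 libraries. All Axin1 libraries were above all controls, on 27 to 96 reads per library. Its log2 fold change was 0.88 (95% interval 0.09 to 1.68, edgeR adjusted p 0.247). Jag2, the second Jagged ligand, had a log2 fold change of 0.01 (95% interval -0.49 to 0.50). Dlk1, an imprinted Delta-like protein without the domain that activates Notch, had 3 to 17 reads per library and an interval from -1.44 to 1.90, so no change of moderate size was detectable at this depth. The 11 neural markers summed to 179, 225 and 392 CPM in the controls and to 276, 254 and 268 CPM in the Axin1 libraries, and all 11 were highest among the controls in control 3, as Dll1 was. Among the Axin1 libraries both the sum and Dll1 were highest in library 1. Nes made up most of that sum, at 235, 172 and 173 CPM in Axin1 libraries 1, 2 and 3. Every other neural marker was lowest in library 1 among the Axin1 libraries, such as Tubb3 at 21.5, 50.5 and 55.0 CPM. The part of neural RNA in the Dll1 values was not tested.

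**Figure D2:**
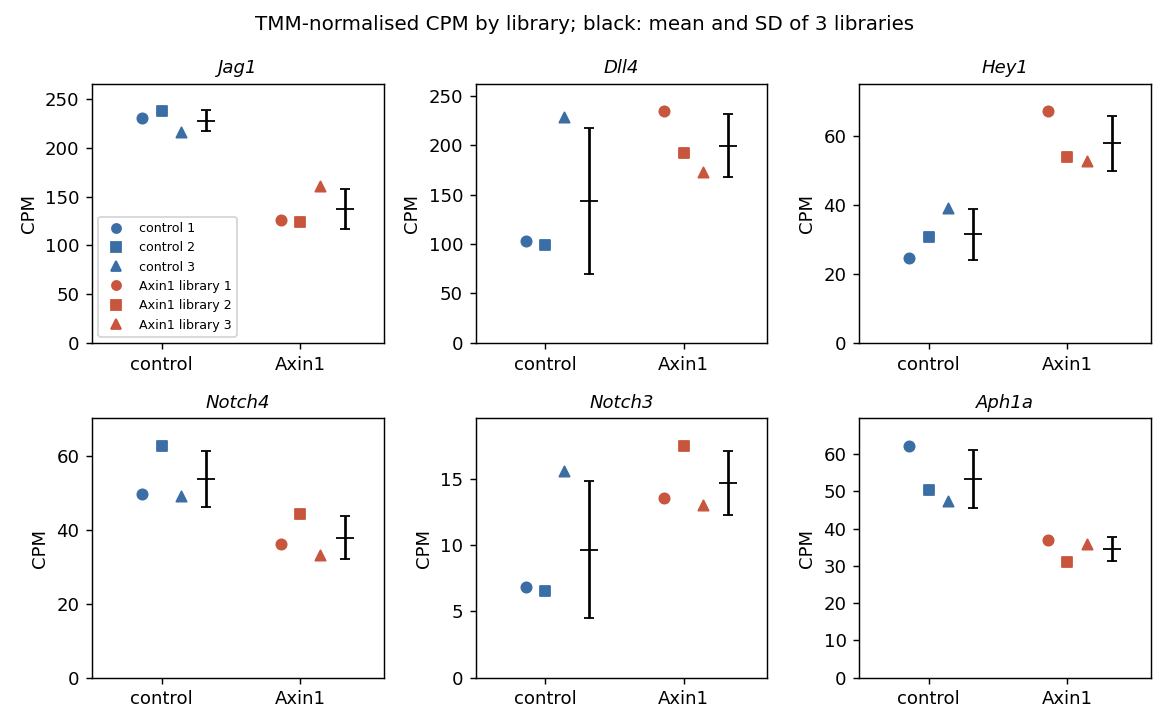
TMM-normalised CPM (y axis, from 0) of 6 members in the 3 controls (blue) and 3 Axin1 libraries (red), with the marker shape giving the library number and black bars the mean and SD. The groups separate for Jag1, Hey1, Notch4 and Aph1a, while control 3 lies with the Axin1 libraries for Dll4 (229 CPM) and Notch3 (15.6 CPM).

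Levels of different genes were compared per length, as the deposited RPKM. Dll4 (30.2 to 71.5 RPKM) and Jag1 (22.7 to 42.8 RPKM) were the main ligands, ahead of Jag2 (3.58 to 5.98), Dll1 (0.665 to 2.15) and Dlk1 (0.0645 to 0.371 RPKM). Dll4 and Jag1 changed places between libraries. The ratio of Dll4 to Jag1 RPKM was 0.760, 0.705 and 1.80 in controls 1, 2 and 3 and 3.15, 2.63 and 1.82 in Axin1 libraries 1, 2 and 3. Jag1 thus exceeded Dll4 in 2 controls, Dll4 exceeded Jag1 in the other 4 libraries, and control 3 lay just under Axin1 library 3. Because both genes were picked from the list, no test was made of the ratio.

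The receptors did not pass the test, with edgeR adjusted p values from 0.174 to 0.952, 1 unadjusted p under 0.05 and 0 calls by DESeq2. Notch1, the main endothelial receptor, read 308, 323 and 406 CPM in the controls and 402, 341 and 332 CPM in the Axin1 libraries (log2 0.05, 95% interval -0.26 to 0.36). It was the most abundant receptor per length in every library and held 72.6% to 83.2% of the summed receptor RPKM. Notch2 was at 25.3 ± 1.33 CPM in the controls and at 24.4 ± 9.11 CPM in the Axin1 libraries.

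Notch4, a receptor largely restricted to endothelium, read 49.6, 62.6 and 49.2 CPM in the controls and 36.2, 44.3 and 33.1 CPM in the Axin1 libraries. All Axin1 values were lower than all control values. The log2 fold change was -0.51 (95% interval -0.88 to -0.13) and the edgeR adjusted p 0.174. With 1 library left out the fold change ranged from -0.64 to -0.38 on the log2 scale. The ratio of Notch1 to Notch4 RPKM was 4.32, 3.59 and 5.75 in the controls and 7.75, 5.35 and 6.99 in the Axin1 libraries, which overlapped.

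Notch3, the receptor of pericytes and smooth muscle, read 6.83, 6.52 and 15.6 CPM in the controls and 13.6, 17.5 and 13.1 CPM in the Axin1 libraries. As for Dll4, control 3 stood with the Axin1 libraries (log2 0.61, 95% interval -0.20 to 1.42, edgeR adjusted p 0.422). Without control 3 the log2 fold change was 1.13 and the edgeR adjusted p 0.0382. The mural marker Pdgfrb read 8.75, 11.503 and 26.5 CPM in the controls and 12.6, 23.1 and 18.9 CPM in the Axin1 libraries, and it too was highest among the controls in control 3, as were 6 of the 10 mural markers, while the other 4 (Rgs5, Abcc9, Acta2 and Tagln) were highest in control 2. The part of mural cells in the Notch3 values was not tested, and in sorted bulk RNA fewer cells of a type and less RNA per cell cannot be told apart.

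**Figure D3:**
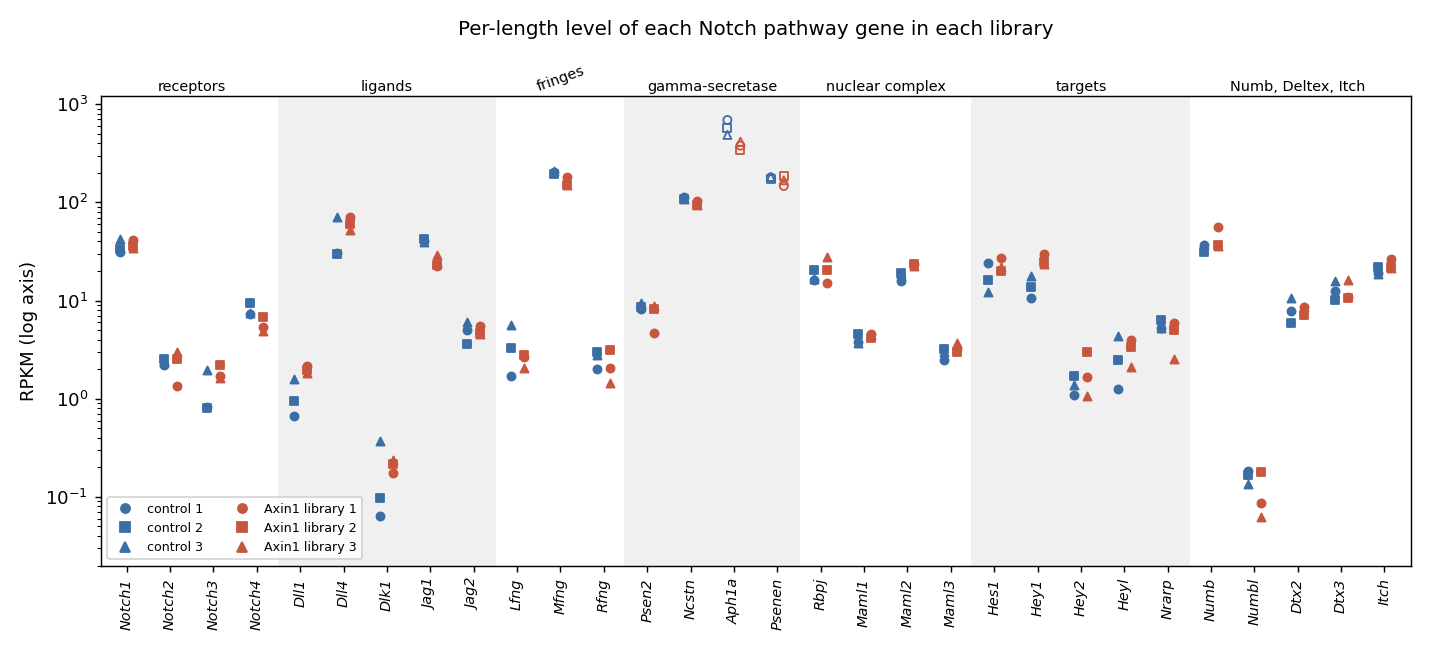
Deposited RPKM (y axis, log scale) of the 30 members in each library, blue for controls and red for Axin1 libraries, ordered by role. Open symbols mark Aph1a and Psenen, whose counted lengths were short (91 and 159 bases), and among the others Mfng and Ncstn were the highest.

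Fringe expression was nearly all Mfng (manic fringe), which made up 96.1% to 98.2% of the summed fringe RPKM. It read 391, 357 and 385 CPM in the controls and 341, 271 and 277 CPM in the Axin1 libraries, without overlap. Its log2 fold change was -0.35 (95% interval -0.62 to -0.08, edgeR adjusted p 0.187). Lfng (lunatic fringe) was at 4.03 to 12.8 CPM and Rfng (radical fringe) at 2.68 to 5.72 CPM over all libraries, with log2 fold changes of -0.50 and -0.26 whose intervals spanned 0. The highest Lfng value was that of control 3.

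All 4 gamma-secretase subunits had negative log2 fold changes, and 0 passed edgeR's test (adjusted p 0.0991 to 0.760, 1 with an unadjusted p under 0.05 and 1 called by DESeq2). Aph1a, a scaffold subunit, read 62.1, 50.4 and 47.5 CPM in the controls and 36.8, 31.0 and 35.8 CPM in the Axin1 libraries. The groups were apart, with a log2 fold change of -0.63 (95% interval -0.97 to -0.28, edgeR adjusted p 0.0991). DESeq2 gave 0.0205, and edgeR without control 3 gave 0.0416.

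The Aph1a value rests on a small part of the gene. The length implied by its reads and RPKM was 91 bases, 3.17% of its longest GENCODE M21 transcript, and 159 bases or 22.4% for Psenen, the smallest subunit. For 18 of the 30 members that share was over 95%. Exons of Aph1a overlap those of Car14 on the opposite strand, exons of Psenen those of U2af1l4, and exons of Ncstn those of Copa, and 10 of the 30 members share exon bases with some gene of the opposite strand, so reads of such partners could not be separated if counting ignored strand. RPKM of Aph1a and Psenen was therefore not ranked against other genes.

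Ncstn (nicastrin, the substrate-binding subunit) read 316, 296 and 295 CPM in the controls and 281, 253 and 259 CPM in the Axin1 libraries, apart but by a small step (log2 -0.19, 95% interval -0.41 to 0.03, edgeR adjusted p 0.350). Psen2, a catalytic presenilin, was at 17.0 ± 0.947 and 13.9 ± 4.25 CPM, and its lowest value was the 9.11 CPM of Axin1 library 1. Psenen had a log2 fold change of -0.11 (95% interval -0.45 to 0.23).

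In the nuclear complex all 4 genes had positive log2 fold changes between 0.12 and 0.34, and 0 passed edgeR's test (adjusted p 0.184 to 0.751, 1 with an unadjusted p under 0.05, 0 called by DESeq2). Maml2, a Mastermind coactivator, read 76.6, 90.03 and 88.5 CPM in the controls and 111, 108 and 103 CPM in the Axin1 libraries. The groups did not overlap, and the log2 fold change was 0.34 (95% interval 0.08 to 0.60, edgeR adjusted p 0.184). Rbpj, the DNA-binding partner of cut Notch, was at 32.1 to 59.0 CPM in all libraries, with both extremes in Axin1 libraries. Maml1 (20.4 to 25.7 CPM) and Maml3 (16.6 to 24.3 CPM) varied little, and their intervals were -0.25 to 0.49 and -0.23 to 0.58 on the log2 scale.

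Of the 5 targets 0 passed edgeR's test (adjusted p 0.0793 to 0.855, 1 with an unadjusted p under 0.05 and 1 called by DESeq2). Hey1, a Hairy-related repressor that marks arterial endothelium, read 24.6, 30.7 and 39.2 CPM in the controls and 67.1, 53.9 and 52.7 CPM in the Axin1 libraries. Every Axin1 library lay above every control, and control 3 was again the highest of its group. The log2 fold change was 0.88 (SE 0.19, 95% interval 0.44 to 1.32) and the edgeR adjusted p 0.0793. The fold change lay between 0.73 and 1.05 on the log2 scale with 1 library left out. The edgeR adjusted p was 0.0145 without control 3, 0.131 to 0.269 in the other fits that left out 1 library, and 0.0465 without a filter on low counts, and DESeq2 gave 0.00301.

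Hes1, a widely expressed Notch target, read 36.6, 23.5 and 17.9 CPM in the controls and 40.3, 28.6 and 32.4 CPM in the Axin1 libraries, with overlap (log2 0.38, 95% interval -0.23 to 0.99, edgeR adjusted p 0.518). Control 3 was the lowest library for Hes1 and the highest control for Hey1, and the ratio of Hey1 to Hes1 RPKM was 0.442, 0.860 and 1.44 in the controls against 1.10, 1.24 and 1.07 in the Axin1 libraries. Nrarp, a feedback inhibitor that Notch induces, lay between 13.5 and 16.5 CPM in the controls and read 15.4, 12.7 and 6.57 CPM after Axin1 overexpression (log2 -0.34, 95% interval -1.03 to 0.35). Its sign was thus opposite to that of Hey1, and neither passed the test.

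Hey2, an arterial repressor, was low, at 2.89, 4.37 and 3.49 CPM in the controls and 4.31, 7.51 and 2.77 CPM in the Axin1 libraries. Heyl, found mostly in mural cells, read 5.86, 11.3 and 19.9 CPM in the controls and 18.1, 15.2 and 9.60 CPM in the Axin1 libraries. For both the groups overlapped, and the log2 fold changes of 0.44 and 0.21 had intervals from -0.50 to 1.39 and from -0.82 to 1.24.

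The regulators of Notch trafficking and turnover did not pass edgeR's test (adjusted p 0.481 to 0.971), with 0 unadjusted p values under 0.05 and 0 DESeq2 calls among the 4 tested. Numb, an endocytic inhibitor of Notch, lay at 57.4 to 69.8 CPM in the controls and at 105, 67.01 and 66.4 CPM in the Axin1 libraries, high in Axin1 library 1 alone. Itch, a ubiquitin ligase of the Nedd4 family, read 96.2 to 115 CPM in the controls and 111 to 140 CPM in the Axin1 libraries. Dtx2 and Dtx3, of the Deltex family of ubiquitin ligases, had log2 fold changes of -0.03 and -0.04 with intervals of about -0.57 to 0.50. Numbl, the second Numb gene, was at 0.173 to 0.525 CPM and has no fold change here.

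**Figure D4:**
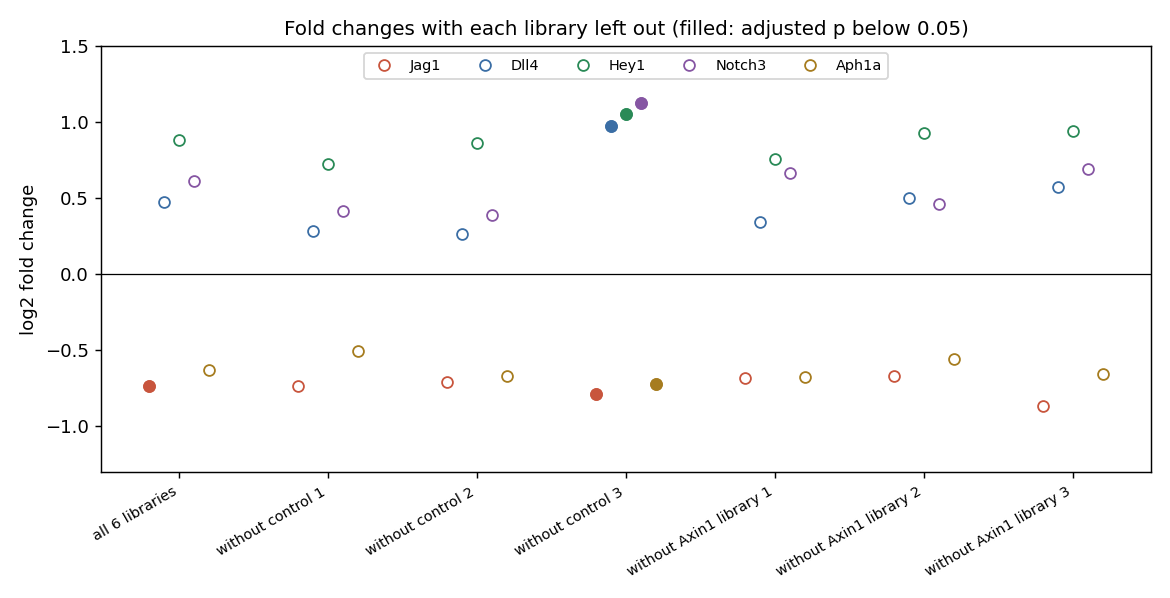
Log2 fold change (y axis) of 5 members with all 6 libraries and with each library left out (x axis); filled circles have an edgeR adjusted p below 0.05. Jag1 and Aph1a stay below 0 and Hey1, Dll4 and Notch3 above it. Jag1 is filled with all 6 libraries and without control 3. The others are filled only without control 3, where 5.37% of all genes were called.

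Further genes of the pathway were read from a separate list of 47, of which 34 were tested. By edgeR 0 passed, and the median log2 fold change was 0.03. At an unadjusted p under 0.05 by edgeR there were 5, while 17.2% of all genes reached that. DESeq2 called 3, against 6.17% of all genes with an adjusted p. The 3 were ubiquitin ligase genes. Neurl1a and Mib2, whose products act on Notch ligands in the signal-sending cell, were at 2.07 to 4.96 and 1.49 to 3.95 CPM in the controls and at 7.19 to 9.60 and 4.82 to 7.67 CPM in the Axin1 libraries, without overlap. Their log2 fold changes were 1.39 and 1.5003 with edgeR adjusted p values of 0.114 and 0.149, and 0.0209 and 0.0222 without control 3. Neurl3 read 3.76, 2.38 and 1.01 CPM in the controls and 5.91, 7.99 and 12.3 CPM in the Axin1 libraries (log2 1.86, edgeR adjusted p 0.113). Dtx3l and Ctbp1, also under an unadjusted p of 0.05, were lower in the Axin1 libraries without overlap. Their log2 fold changes were -0.61 and -0.31, with edgeR adjusted p values of 0.222 and 0.223.

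The sheddases that make the first cut in Notch were even between groups. Adam10 was at 356 ± 50.9 and 345 ± 28.5 CPM and Adam17 at 160 ± 7.87 and 176 ± 24.1 CPM, with log2 intervals of -0.34 to 0.25 and -0.15 to 0.41. Hes5, the Hes gene of neural progenitors, had at most 4 reads in any library, and the ligand gene Dll3 at most 2.

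Endothelial genes tied to Notch were read from lists of arterial, venous and tip cell genes, 19 in all and all tested. Of these Esm1, a tip cell proteoglycan gene, passed edgeR's test as higher and 0 passed as lower, while edgeR called 0.845% of all genes. Esm1 read 108, 98.7 and 83.8 CPM in the controls and 203, 178 and 155 CPM in the Axin1 libraries, a log2 fold change of 0.89 (95% interval 0.56 to 1.21, edgeR adjusted p 0.0421). It kept its edgeR call without control 3 (adjusted p 0.0211). It lost the call in every other fit that left out 1 library, where the adjusted p reached 0.198, and without robust estimation. Flt4, the VEGF-C receptor gene, read 236, 188 and 260 CPM and 390, 319 and 341 CPM (log2 0.62, edgeR adjusted p 0.0867), without overlap. Its edgeR adjusted p was 0.0305 without control 3, and DESeq2 gave 0.0105.

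The arterial genes did not share a direction. Gja4 (connexin 37) read 553, 898 and 731 CPM in the controls and 298, 481 and 328 CPM in the Axin1 libraries (log2 -0.98, edgeR adjusted p 0.111, DESeq2 6.0e-04). Its highest Axin1 value lay below its lowest control. Efnb2, the arterial ephrin ligand, was at 146 ± 34.7 and 174 ± 13.0 CPM, and Gja5 (connexin 40) at 302 ± 85.6 and 372 ± 24.2 CPM, with positive log2 fold changes of 0.25 and 0.30. Of the venous genes Aplnr, the apelin receptor gene, had the lowest edgeR adjusted p, 0.118 (log2 -0.39), and its groups did not overlap. DESeq2 gave 0.0450.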

How the data were processed

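The authors deposited 1 table per library with read counts and RPKM/FPKM values for RefSeq gene entries, per the file headers. Bowtie and mm9 are named in the submitters' processing notes; the counting program, strand setting and treatment of multiply matching reads are not stated there. Counts were used as deposited. Entries were kept with filterByExpr (minimum count 10, minimum total 15; 12661 genes) and tested with edgeR 4.0.16 (quasi-likelihood, robust, TMM, R 4.3.3), with Benjamini-Hochberg adjustment over all of them at 0.05. The SE was the log2 fold change divided by the square root of F. The common biological coefficient of variation was 25.3%. RPKM values deposited by the authors served to compare levels between genes; the counted length is reads divided by RPKM and the library total. DESeq2 1.42.0, limma 3.58.1 on log2(RPKM + 1) and log2(RPKM + 0.1), other scalings and filters, blocks and leaving out each library were alternatives.

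The members, the lists and the motifs were chosen with earlier results of these data known. Named genes were all 30 members, Axin1, defining markers and some genes of the lists. The gene with the smallest p is not named for every list. Cdh5, Eng, Esam, Dll3, Hes5, Adam10, Adam17, Dtx3l, Ctbp1, Efnb2 and Gja5 were partly named after their values were seen. The labels call the libraries biological replicates, and p-values measure only the spread between these libraries. Replicates of a group differed by far more than sampling noise (chi-square over degrees of freedom 15.9 to 46.5). The largest value was that of Axin1 libraries 1 and 3, while control 3 gave 30.7 with control 1 and 25.9 with control 2. The fit was tested on simulated counts. GENCODE M21 and RefSeq tables are of GRCm38, so only promoter windows carry coordinates.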

Additional observations from a re-analysis of the deposited data

How the results depend on the processing

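Of 462 values of single members over 16 alternatives, 415 kept their direction and side of the threshold, 13 passed it newly, 9 lost it and 25 changed sign. Sign changes occurred in 11 members, none of them called in any fit in which its sign had changed. Jag1 passed in 7 of the 16 (edgeR adjusted p 0.0596 without robust estimation), Hey1 in 4, Aph1a in 3, Dll4 and Notch3 in 2 each and Dll1 and Heyl in 1 each. Over all genes the count of calls was 672 by DESeq2, 197 without a filter, 51 without robust estimation and 0 to 695 with 1 library left out, against 107. Members called higher numbered 1 by DESeq2 and without a filter and 0 to 3 with 1 library left out. Members called lower numbered 2 by DESeq2, 0 without robust estimation or by limma at either pseudocount, and 0 to 2 with 1 library left out. Other pathway genes called numbered 3 by DESeq2 and 0 to 2 with 1 library left out, and arterial, venous and tip cell genes 4, 0 without robust estimation, and 0 to 2. The cause of these differences was not tested, and fits that left out 1 library also had fewer libraries.

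Deviations from the group means correlated across genes at 0.234, 0.152 and -0.0229 for libraries sharing the description's replicate number 1, 2 and 3. Control and Axin1 libraries with unlike numbers gave -0.249 to 0.175. The pairs numbered 1 and 2 also share a title number, and these values do not settle whether the libraries are paired. With the description number as a replicate block edgeR called 105 genes, 0 members in either direction (Jag1 adjusted p 0.0628) and 2 arterial, venous or tip cell genes. In the 4 libraries that share a title number, with that number as a block, it called 1500 genes, 5 members higher (Dll4 at log2 1.07 and adjusted p 1.7e-05, Notch3, Dll1, Hey1 and Heyl) and 2 lower (Jag1 and Aph1a), 6 other pathway genes and 4 arterial, venous or tip cell genes. That fit leaves out control 3 and Axin1 library 3.

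Signs changed for Jag2 (-3.35e-05 with RLE factors, -0.0324 with upper quartile scaling, -0.00557 by DESeq2) and Dtx2 (0.0151 by limma on log2(RPKM + 1) and 0.0202 with the smaller pseudocount, 0.00431 with the description block, 0.15 with the title block). With the title block they also changed for Lfng (0.15), Rfng (0.0131) and Rbpj (-0.0866). With 1 library left out the log2 fold changes ranged from -0.0392 to 0.17 for Notch1, -0.30 to 0.22 for Notch2, -0.17 to 1.36 for Dlk1, -0.17 to 0.16 for Jag2, -0.0189 to 0.42 for Rbpj, -0.0201 to 0.72 for Hey2, -0.13 to 0.72 for Heyl, -0.21 to 0.18 for Dtx2 and -0.27 to 0.11 for Dtx3. The depth of Dlk1 and Numbl, at most 17 and 7 reads, limits what could be detected for them.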
